A study of Mus musculus with 22 samples.

Results

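The cells described here are endothelial cells in which no transcript of Dll4 or Hey1 was counted, in sections of mouse embryos measured in place with CosMx, an imaging assay that counts single RNA molecules inside segmented cell outlines. A cell was included when it held 200 counts or more in total, 3 counts or more of Cdh5, less than 10% hemoglobin counts (Hbb and Hba-a1/2) and no count of Dll4 or Hey1. This rule found 821 of 37575 cells, called Dll4-Hey1- endothelial cells below. They made up 4.32% (median over sections) of the cells with 200 counts or more in the sections whose labels give the knockout (range 1.19 to 6.74%) and 3.68% in the wild-type sections (range 2.56 to 5.61%). A further 683 cells met the same limits but carried Dll4 or Hey1, and they are called Dll4/Hey1+ endothelial cells. The Dll4-Hey1- cells were thus chosen by their own Cdh5, Dll4, Hey1, hemoglobin and total counts, and no other gene was read by the rule.

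The study asked what the nuclear receptors NR4A1 and NR4A2 do when the first blood stem cells form from endothelium. It used 1 Nr4a1-/-Nr4a2-/- embryo, to which the labels assign 13 of the sections analysed here, and 1 wild-type embryo, to which they assign 9, both at E10 (embryonic day 10), fresh frozen and cut at 10 µm. The wild type is Nr4a1+/+Nr4a2+/+, and both null strains had been backcrossed to C57BL/6J. The sections of the first are called knockout-labelled, for a reason given with the targeted genes. The labels name the genotypes only as knockout and wild type and number an embryo 1 or 2 for each, which gives 4 numbered sets of sections: 7 and 6 of the knockout, 4 and 5 of the wild type. The numbers may stand for slides, since the study cut each embryo from anterior to posterior of the aorta region onto slides of its own. Because each genotype is 1 embryo, the tests below, whose replicates are sections, set one embryo against another, and the genotype cannot be told apart from the embryo or from the slide it was placed on. The tables held 998 genes. Over the 22 sections the total count ran from 169038 to 887904 and the median count per cell from 87 to 332.

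Cdh5 encodes VE-cadherin, the adhesion protein that joins endothelial cells to each other, and it is transcribed in arteries, veins and capillaries alike. Dll4 is a Notch ligand of arterial endothelium and sprouting tip cells, and Hey1 is a transcription factor switched on by Notch. Arteries are further marked by the ephrin Efnb2 and veins by its receptor Ephb4, and blood stem cells arise from the ventral wall of the aorta, where some endothelial cells switch on Runx1.

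The 821 Dll4-Hey1- endothelial cells comprised 485 cells in the knockout-labelled sections (4 to 85 per section, median 38) and 336 cells in the wild-type sections (15 to 71, median 39). The section with 4 such cells was left out of all tests over sections, which therefore used 12 and 9 sections. The Cdh5 count was 3 in 325 cells (39.6%), 4 in 186 (22.7%), 5 to 9 in 271 (33%) and 10 or more in 39 (4.75%), with a highest count of 20. Their median total was 457 counts (quartiles 329 and 628) from a median of 234 genes. Of the 1821 cells with 3 Cdh5 counts or more, 1654 held 200 counts or more, and 150 of these were lost to the hemoglobin limit.

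A count of 0 for Dll4 and Hey1 was reached more often in cells with few counts. Dll4-Hey1- cells were 159 of 210 endothelial cells (75.7%) with totals from 200 to under 300, 315 of 540 (58.3%) from 300 to under 500 and 347 of 754 (46%) at 500 or more. In the Dll4/Hey1+ cells, 346 of 683 (50.7%) carried a single count of both genes together, so the limit between both kinds was often 1 molecule. Over sections, the Dll4-Hey1- share of endothelial cells ran from 44.1 to 77.1% (median 56.3%) in the knockout-labelled sections and from 30.9 to 60.0% (median 53.6%) in the wild type. "Dll4-Hey1-" therefore means that neither transcript was counted, not that the cells lack both transcripts.

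Values on each side of the limits are given as a description. Cells with a Cdh5 count of 2 and no Dll4 or Hey1 (787 cells) held 8.13 Pecam1, 8.38 Cd34 and 12.6 Kdr counts per 10000 counts, while those with a Cdh5 count of 3 (325 cells) held 13.5, 14.2 and 18.3. Vwf stood at 8.22 and 7.42 and Efnb2 at 7.42 and 7.97 on the same sides of that limit, so neither showed the step of the other genes. Across summed Dll4 and Hey1 counts of 0, of 1 and of 2 or more, Vwf stood at 10.3, 18.2 and 22.9 per 10000 and Efnb2 at 8.14, 10.5 and 13.1. Pecam1 (16, 17.9 and 20.2), Cd34 (21.3, 22 and 26), Tie1 (19.6, 22.9 and 25.5) and Col4a1 (116, 142 and 189) were likewise lowest in the cells without Dll4 and Hey1, and of the 7 genes read here Kdr alone was not (25.6, 23.4 and 24.6).

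To ask whether the cells were endothelial beyond the one gene that chose them, each was compared with 3 cells of the same section that had no Cdh5 count, met the same limits on total and hemoglobin counts and differed from it in total by at most 25% of the smaller total. No limit was set on the Dll4 and Hey1 counts of these comparison cells. Such cells were found for 813 cells, giving 2439 matched Cdh5- cells; the median of the sections' median totals was 443 and 441 counts. Among 23 pan-endothelial identity genes other than Cdh5, the median number detected was 8 per Dll4-Hey1- cell and 5 per matched cell, and 5 or more were detected in 84.0% and 53.7% of cells. Pecam1, a junctional adhesion receptor, was counted in 46% of the Dll4-Hey1- cells and 17.9% of the matched cells, and Vwf, the clotting glycoprotein von Willebrand factor, in 29.8% and 21.9%. One or both were counted in 61.8% and 35.1%. The matched cells may include endothelial cells in which no Cdh5 was counted, so their share need not be that of other cell types alone.

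On summed counts per section, tested with edgeR's quasi-likelihood test with the section as a block and Benjamini-Hochberg adjustment over all genes, most identity genes stood above the matched cells in both embryos. In the wild-type sections, 15 of 23 identity genes rose, 8 of them at least 2-fold, and none fell (median log2 fold change 0.69). Over all 986 genes tested, 4.26% rose, 1.32% rose at least 2-fold and 1.01% fell, around a median of -0.02. In the knockout-labelled sections, 19 of 23 rose, 11 of them at least 2-fold, and none fell (median 0.98), where 6.39% of 986 genes rose, 1.93% rose at least 2-fold and 4.06% fell, around a median of -0.02. The identity genes that passed in neither embryo were Adgrl4, Cav1, Mecom and Tm4sf1, and Icam2, Acvrl1, Gata2 and Ldb2 passed in the knockout-labelled sections alone, a contrast between embryos that is tested further on. Scaled by library size alone, which put the median of all genes at -0.11 in the wild type, 14 and 18 identity genes rose (Adgrf5 lost its call in the wild type and Ldb2 in the other embryo), and over all genes 34 rose and 19 fell in the wild type and 54 rose and 54 fell in the other embryo, against 42 and 10, and 63 and 40, with TMM scaling.

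Cd34, a sialomucin of endothelial and blood progenitor cells, showed the largest change among the genes that passed in both embryos. In the wild-type sections it ran from 9.21 to 26.4 counts per 10000 (median 15.8) in the Dll4-Hey1- cells and from 1.88 to 4.31 (median 4.05) in matched cells, a log2 fold change of 2.23 ± 0.18 (SE; adjusted p = 4.62e-23, edgeR). In the knockout-labelled sections it ran from 18.1 to 28.6 (median 24.4) against 2.33 to 8.84 (median 3.67), a log2 fold change of 2.59 ± 0.14 (adjusted p = 5.85e-41, edgeR). Every one of the 21 sections was higher in the Dll4-Hey1- cells, and the ranges did not overlap in either embryo.

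Kdr, the main VEGF receptor, ran from 9.98 to 29.4 counts per 10000 (median 20.1) in the wild-type Dll4-Hey1- cells and from 5.59 to 9.70 (median 7.66) in their matched cells, and from 20.1 to 38.2 (median 26.8) against 3.05 to 10.7 (median 6.09) in the knockout-labelled sections. It was higher in 21 of 21 sections, without overlap within either embryo, and its log2 fold changes were 1.53 ± 0.15 (wild type, adjusted p = 2.59e-16) and 2.09 ± 0.12 (adjusted p = 7.36e-35). Pecam1 ran from 7.13 to 23.2 (median 14.4) against 4.44 to 7.52 (median 4.85) in the wild type and from 11.5 to 26.4 (median 14.4) against 0.52 to 9.91 (median 4.90) in the other embryo. It was higher in 20 of 21 sections, the exception being a wild-type section, with log2 fold changes of 1.76 ± 0.18 and 1.78 ± 0.15 (edgeR adjusted p = 7.60e-16 and 1.06e-21).

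Vwf had smaller fold changes than Pecam1, the other marker gene named for these cells that the rule did not use. It ran from 5.12 to 21.4 counts per 10000 (median 10.2) against 3.01 to 7.73 (median 6.70) in the wild type, a log2 fold change of 0.82 ± 0.19 (edgeR adjusted p = 0.00131). In the knockout-labelled sections it ran from 2.79 to 17.2 (median 11.3) against 3.80 to 7.78 (median 5.83), a log2 fold change of 0.86 ± 0.16 (edgeR adjusted p = 8.04e-06). The ranges overlapped in both embryos, and 17 of 21 sections were higher in the Dll4-Hey1- cells.

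**Figure D1:**
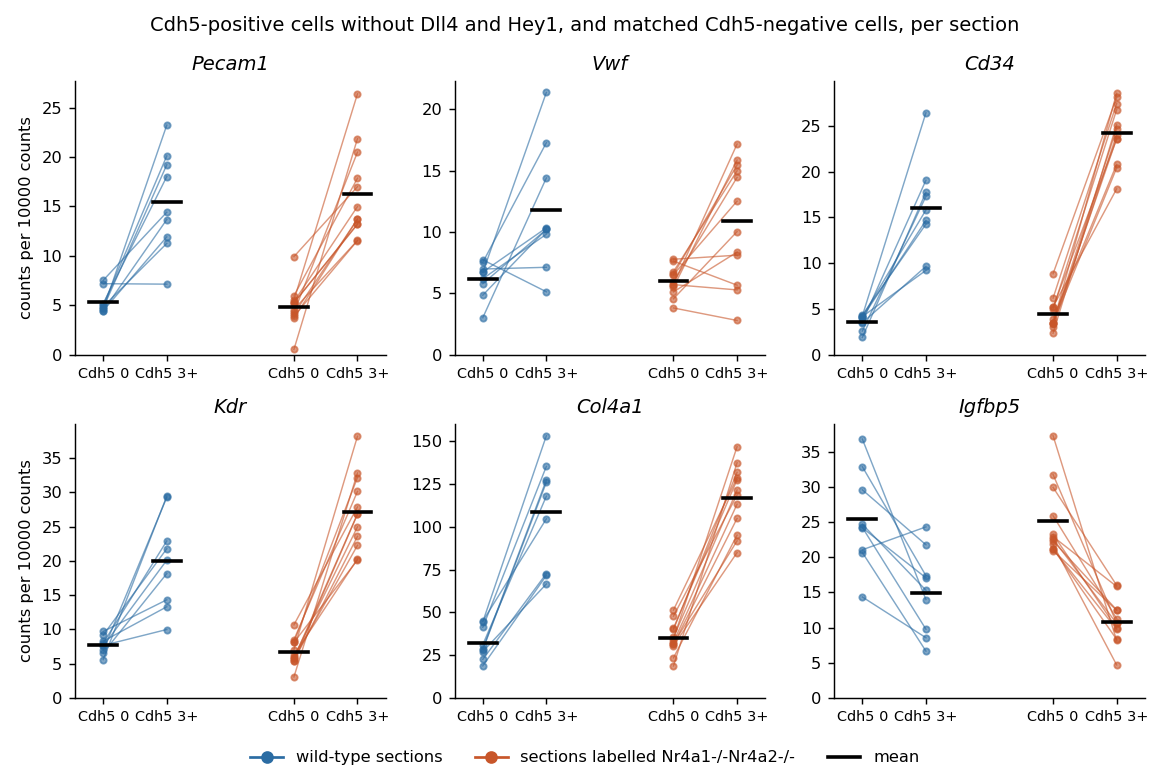
Counts per 10000 counts (vertical axes) of 6 genes in matched Cdh5- cells (Cdh5 0) and Dll4-Hey1- endothelial cells (Cdh5 3+), with 1 point per section, lines joining the points of a section and black bars at the mean, for 9 wild-type sections (blue) and 12 knockout-labelled sections (orange). Cd34 rises in all 21 sections without overlap, Vwf rises in 17 of 21 with overlap, and Igfbp5 falls in 20 of 21.

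Further endothelial receptors rose in both embryos. The log2 fold changes in the wild type and in the knockout-labelled sections were 1.39 and 1.79 for Ramp2, a partner of the adrenomedullin receptor, 1.3 and 1.66 for Tie1, an orphan receptor of the angiopoietin pathway, and 1.36 and 1.54 for Flt1, a VEGF receptor that also acts as a decoy. Calcrl, the receptor that Ramp2 joins, changed by 0.86 and 1.01, and Tek, the angiopoietin receptor, by 0.69 and 0.92. Klf2, a transcription factor induced by blood flow, changed by 1.00 and 1.37, and it ranged in the wild type from 6.65 to 14.6 counts per 10000 against 3.46 to 7.66 in matched cells. Esam, a junctional protein, changed by 1.08 and 1.23, and Clec14a, a C-type lectin of endothelium, by 0.80 and 1.37. Clec14a, Calcrl and Col15a1 lost their calls in the wild type without the first numbered set of wild-type sections (0.70, 0.63 and 0.68, adjusted p = 0.257, 0.268 and 0.105). Clec14a also missed the threshold without the second, with a larger value from fewer sections (0.97, edgeR adjusted p = 0.124), and Calcrl in the other embryo without the first set of its sections (0.46, adjusted p = 0.474).

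**Figure D2:**
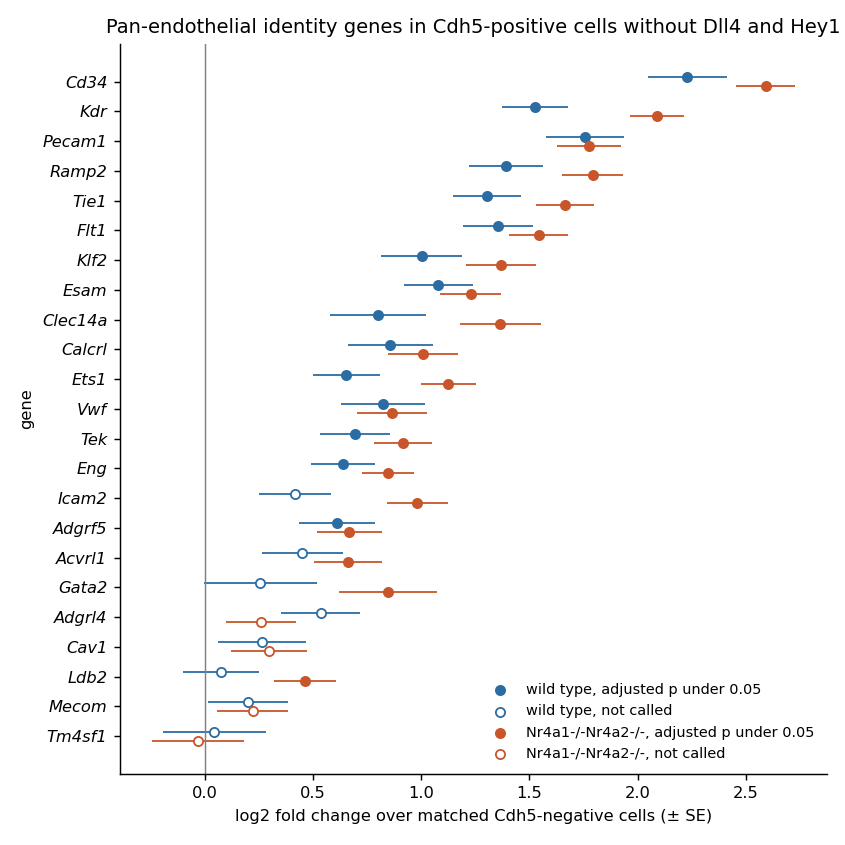
Log2 fold change (horizontal axis, bars are ± 1 SE) of 23 pan-endothelial identity genes in Dll4-Hey1- endothelial cells over matched Cdh5- cells, for the wild-type embryo (blue) and the knockout-labelled embryo (orange), with filled points where the adjusted p was under 0.05. In the wild type 15 genes and in the other embryo 19 genes are filled, led by Cd34 at 2.23 and 2.59.

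Of 12 genes for basement membrane proteins and their integrins, 8 rose in the wild type (median log2 fold change 0.77) and 9 in the knockout-labelled sections (median 0.72), and none fell. Over all 986 genes, 4.26% and 6.39% rose. Col4a1, a chain of the collagen IV network under endothelium, ran from 66.6 to 153 counts per 10000 (median 118) against 18.7 to 44.8 (median 28.6) in the wild type and from 85 to 147 (median 120) against 18.7 to 51.4 (median 33.6) in the other embryo. All 21 sections were higher in the Dll4-Hey1- cells with no overlap, and the log2 fold changes were 1.84 ± 0.10 and 1.83 ± 0.09 (edgeR adjusted p = 2.95e-31 and 3.58e-38). Its partner chain Col4a2 changed by 1.62 and 1.67, Col18a1, the source of endostatin, by 1.14 and 1.11, and Col15a1, a collagen at the outer face of basement membranes, by 0.76 and 1.16. Among the receptors for this matrix, Itga6 changed by 0.83 and 0.87 and Itga5, the fibronectin receptor subunit, by 0.77 and 0.55. Scaled by library size alone, Fn1 lost its call in the knockout-labelled sections (0.33, edgeR adjusted p = 0.064). Vim, the intermediate filament protein of endothelium and mesenchyme, changed by 1.14 and 1.34 and was higher in 21 of 21 sections.

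Of 6 arterial genes that the rule did not use, Notch1 and Efnb2 rose in the wild type and Notch1 alone in the knockout-labelled sections (medians 0.41 and 0.18). Notch1, a Notch receptor of endothelium, changed by 0.77 and 0.78 (edgeR adjusted p = 0.00239 and 1.02e-04) and was higher in 18 of 21 sections. Efnb2 ran in the wild type from 6.14 to 13.5 counts per 10000 (median 9.76) against 3.12 to 7.78 (median 6.84), a log2 fold change of 0.61 ± 0.18 (edgeR adjusted p = 0.0227) that was not called when scaled by library size alone (0.52, adjusted p = 0.0762). In the other embryo it ran from 3.40 to 17.2 (median 7.63) against 2.67 to 9.36 (median 6.27), a log2 fold change of 0.37 ± 0.16 that missed the threshold (edgeR adjusted p = 0.163). Of 3 genes of veins and sinusoids, none passed in the wild type, where Ephb4 had a log2 fold change of 0.17 ± 0.14 (edgeR adjusted p = 0.679). In the knockout-labelled sections, Ephb4 alone rose, by 0.52 ± 0.12 (edgeR adjusted p = 2.89e-04), from a median of 12 per 10000 in matched cells to 18.1. Per cell, Efnb2 was counted in 28.5% of Dll4-Hey1- and 23.2% of matched cells and Ephb4 in 49.0% and 41.9%, so both genes were also counted in many cells without Cdh5.

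Other signalling groups held a few called members each. Over all 986 genes, 4.26% rose and 1.01% fell in the wild type, and 6.39% and 4.06% in the other embryo. Of 11 VEGF and angiopoietin genes, Kdr, Flt1, Tie1 and Tek rose in both embryos and no ligand passed. Of 11 Notch pathway genes, Notch1 rose in both embryos and Notch2 fell in the knockout-labelled sections (-0.51 ± 0.15, edgeR adjusted p = 0.0138), with medians of 0.01 and -0.04. Of 11 BMP and TGF-beta genes, Eng, a TGF-beta co-receptor of endothelium, and the ligand Tgfb1 rose in both embryos, and the receptors Acvrl1 and Tgfbr2 rose in the knockout-labelled sections. Of 6 genes of leukocyte adhesion, Pecam1 and Esam rose in both and Icam2 in the knockout-labelled sections. Several of these called genes, among them Kdr, Tie1, Icam2 and Acvrl1, were already counted in the identity list. None of 15 proliferation genes passed in either embryo (medians 0.01 and -0.04), and of 12 abundant housekeeping genes Pfn1 and Hsp90ab1 rose in the wild type and none passed in the other embryo. Scaled by library size alone, Hsp90ab1 was not called in the wild type, and Pcna and Hmgb2 of the proliferation genes and Ppia, Rack1 and Tpt1 of the housekeeping genes were called lower in the other embryo.

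Of 7 hemogenic genes, which mark endothelium that gives rise to blood, Cd34 rose in both embryos and Gata2, a transcription factor of both endothelium and blood progenitors, in the knockout-labelled sections (0.85 ± 0.23, edgeR adjusted p = 0.00634). Both genes also stand in the identity list. Runx1, the transcription factor needed for blood to form from endothelium, had log2 fold changes of 0.40 ± 0.22 in the wild type and 0.18 ± 0.20 in the other embryo and was not called (edgeR adjusted p = 0.431 and 0.775). It was counted in 19.7% of Dll4-Hey1- and 17.2% of matched cells. Kit, the stem cell factor receptor, was counted in 18.4% and 16.6%, Gfi1, a repressor downstream of Runx1, in 19.7% and 17.1%, and the blood marker Ptprc (CD45) in 15.2% and 13.4%. Pooled over both embryos, these shares lay close to those of the matched cells, which were not chosen to exclude blood cells with little hemoglobin. By embryo, the order of Kit and Ptprc turned. Kit was counted in 15.8% of Dll4-Hey1- and 18.6% of matched cells in the wild type, and in 20.2% and 15.3% in the other embryo. The shares for Ptprc were 13.1% and 15.1%, and 16.7% and 12.4%. Those for Runx1 were 22.6% and 18.5%, and 17.7% and 16.3%.

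In the wild type and in the knockout-labelled sections alike, 36 genes rose and 6 fell, and the 6 were Igfbp5, Fgfr2, Twist1, Sox9, Vcan and Meg3. Igfbp5, a binding protein for insulin-like growth factors, ran from 6.65 to 24.3 counts per 10000 (median 15.3) against 14.4 to 36.8 (median 24.3) in the wild type and from 4.68 to 16 (median 10.6) against 21 to 37.3 (median 22.8) in the other embryo. It was lower in 20 of 21 sections, with log2 fold changes of -0.67 and -1.11, but lost its call in the wild type without the first set of sections (-0.35, edgeR adjusted p = 0.387). Twist1, a transcription factor of mesenchyme, changed by -0.60 and -0.64 and was lower in 20 of 21 sections, with ranges that overlapped in both embryos. Its wild-type call was lost without the first set of wild-type sections (-0.34, edgeR adjusted p = 0.512) and with 1 matched cell per endothelial cell (-0.48, adjusted p = 0.120). Fgfr2, an epithelial growth factor receptor, changed by -0.54 and -0.89, Sox9, a cartilage and epithelial transcription factor, by -0.67 and -0.51, the proteoglycan Vcan by -0.51 and -0.58 and the noncoding RNA Meg3 by -0.46 and -0.42, and each lost its wild-type call when either numbered wild-type set was left out, with values from -0.41 to -0.71 in these fits on fewer sections. The wild-type values also missed the threshold at a Cdh5 limit of 2 for Fgfr2 (-0.26, edgeR adjusted p = 0.209) and Vcan (-0.12, adjusted p = 0.685). Fgfr2 missed it as well at a Cdh5 limit of 4, a total of 300, both other hemoglobin limits and with unmatched cells, Vcan at a total of 300 and with 1 matched cell, and Sox9 at a Cdh5 limit of 4 and with 1 matched cell. In the knockout-labelled sections the calls of Sox9 and Meg3 were lost without the first set and that of Vcan without the second (edgeR adjusted p = 0.332, 0.301 and 0.0794).

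Marker lists of other cell types were read in the same fits. There, 4.26% of all genes rose and 1.01% fell in the wild type, and 6.39% and 4.06% in the other embryo. Of 10 mesenchyme genes, Twist1 fell in the wild type and Pdgfra, Twist1, Col1a2 and Lum in the knockout-labelled sections. Their summed level ran from 98.4 to 438 counts per 10000 (median 165) against 154 to 477 (median 192) in the wild type and from 134 to 344 (median 165) against 168 to 352 (median 257) in the other embryo. Of 7 genes of mural and smooth muscle cells, which lie against endothelium, Tagln rose in the knockout-labelled sections (0.69 ± 0.15, edgeR adjusted p = 1.95e-04) and none passed in the wild type, and the sum ran from 35.4 to 133 against 46.3 to 87.8 in the wild type and from 34.0 to 87.8 against 39.9 to 74.8 in the other embryo. None of 10 macrophage genes passed in either embryo, and their sum ran from 50.9 to 87 against 61.9 to 96.7 in the wild type and from 42.6 to 57.8 against 44.2 to 60.2 in the other embryo. Of 5 epithelial genes, Epcam, Krt18 and Krt19 fell in the knockout-labelled sections, as did Ttn of 4 heart genes, and none of 4 neural tube genes passed. Scaled by library size alone, Pdgfra, Ttn and the heart gene Tnnc1 were also called lower in the wild type. No gene of these lists was at 0 counts in either kind of cell, and the part of neighbouring cells' RNA in these levels was not tested.

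**Figure D3:**
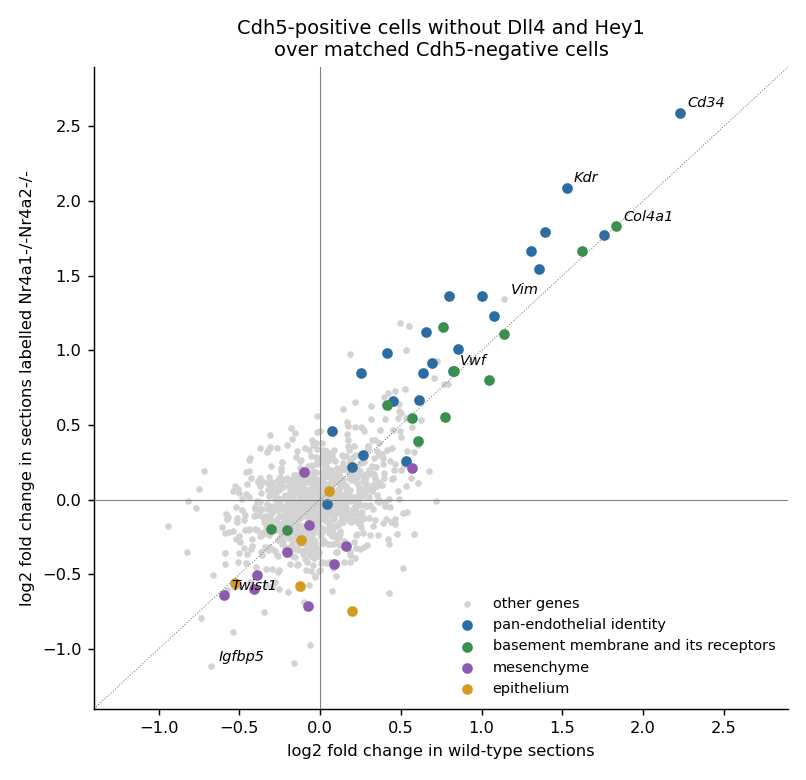
Log2 fold change of 986 genes in Dll4-Hey1- endothelial cells over matched Cdh5- cells, in the wild-type embryo (horizontal) and the knockout-labelled embryo (vertical), with the dotted line of equal values and 4 gene lists in colour. Most identity and basement membrane genes lie to the upper right, up to Cd34 at 2.23 and 2.59, and Igfbp5 lies to the lower left at -0.67 and -1.11.

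Whether the cells stood apart from their neighbours by a different amount in each embryo was tested as an interaction, which removes a shift shared by all cells of a section. No gene passed in either direction (0% and 0% of 986 genes, lowest adjusted p = 0.529, edgeR), while 56 had an unadjusted p under 0.05, and DESeq2 also called 0. The lowest adjusted p belonged to Smad3, a TGF-beta signalling protein, with a difference of -1.05. Kdr had a difference of 0.56 ± 0.20 (edgeR adjusted p = 0.745), Gata2 and Icam2 were not called, and the identity genes had a median difference of 0.21 with none called. With a Cdh5 limit of 2 in place of 3, 2 genes were called, Kdr (0.61) and the annexin Anxa2 (0.73), each with an edgeR adjusted p of 0.0215.

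The Dll4-Hey1- and Dll4/Hey1+ endothelial cells were then compared in pairs within a section, of which 606 could be formed with the same limit of 25% on the difference in total counts. The pairing was close but not exact, with median totals of 475 and 526.5 counts (medians of the section medians). The Cdh5 level, which the rule used, had medians of 89.2 and 95.6 per 10000 in the wild type and 89.7 and 93.8 in the knockout-labelled sections. Of 943 genes tested over 21 sections with the section as a block, 15 were lower (1.59%) and 4 higher (0.424%) in the Dll4-Hey1- cells.

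Vwf showed the largest fall among them. In the wild-type sections it ran from 4.89 to 20.3 counts per 10000 (median 11.2) in the Dll4-Hey1- cells and from 13.3 to 52.6 (median 22.3) in the Dll4/Hey1+ cells, and in the knockout-labelled sections from 4.89 to 17.2 (median 10.8) against 8.14 to 28.1 (median 17). It was lower in 19 of 21 sections with ranges that overlapped in both embryos, and the log2 fold change was -0.92 ± 0.13 (edgeR adjusted p = 2.07e-09). Smad6, an inhibitor of BMP signalling in endothelium, ran from 6.09 to 26.6 (median 15.9) against 16 to 33.9 (median 23.9) in the wild type and from 9.75 to 26.5 (median 15.3) against 20.6 to 45.2 (median 28.8) in the other embryo. It was lower in 21 of 21 sections (-0.77 ± 0.10, edgeR adjusted p = 6.30e-10). Igfbp3, another binding protein for insulin-like growth factors, was lower in 20 of 21 sections, with medians of 12.7 against 21.9 in the wild type and 13.0 against 25.5 in the other embryo (-0.77 ± 0.11, edgeR adjusted p = 3.07e-08).

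Of the 6 arterial genes, 2 fell and none rose (median -0.49, beside 0.02 over all genes). Notch1 fell by 0.54 on the log2 scale (SE 0.14, edgeR adjusted p = 0.0125) and was lower in 16 of 21 sections. Its call was lost in several alternatives, among them a Cdh5 limit of 4 (-0.43, edgeR adjusted p = 0.179) and leaving out the first set of knockout-labelled sections (-0.42, adjusted p = 0.228). Efnb2 had a log2 fold change of -0.51 ± 0.14 (edgeR adjusted p = 0.0226), but its 21 sections did not run one way. In the knockout-labelled sections it ran from 3.67 to 17.2 (median 7.44) against 6.58 to 18.5 (median 11.5) and was lower in 10 of 12, whereas in the wild type it ran from 4.23 to 14.2 (median 9.98) against 2.67 to 20.9 (median 12) and was lower in 4 of 9. The difference between the embryos was not tested. The remaining arterial genes did not pass, with values of -0.22 for the Notch target Hey2, -0.17 and -0.46 for the ligands Jag1 and Jag2 and -0.51 for the chemokine receptor Cxcr4.

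Of the 3 vein and sinusoid genes, none passed (median 0.03), and Ephb4 had a log2 fold change of 0.06 ± 0.11 (edgeR adjusted p = 0.929), with medians of 16 against 14.7 per 10000 in the wild type and 18.1 against 15.5 in the other embryo and wide overlap in both. Of 12 basement membrane genes, Col4a1, Col4a2, Col18a1 and Fn1 fell. Col4a1 was lower in 21 of 21 sections (-0.59 ± 0.06, edgeR adjusted p = 4.76e-17), from a median of 131 to 104 in the wild type and from 172 to 120 in the other embryo. Of the identity genes, Vwf, Mecom, a transcription factor of arterial and blood-forming endothelium (-0.62, edgeR adjusted p = 0.00167), and Tie1 (-0.36) fell and none rose. The mural list lost Myl9 (-0.51), and the VEGF and angiopoietin list had Tie1 as its one call. The hemogenic and BMP and TGF-beta lists had Mecom and Smad6 as their single calls, and Runx1 was not called (-0.13, edgeR adjusted p = 0.929). The 4 genes that were higher were Eno1/b, a glycolytic enzyme (0.29), the chaperone Hsp90ab1 (0.27), the cytokine Mif (0.25) and the chromatin protein Hmgb2 (0.20). Without the second set of knockout-labelled sections, Eno1/b, Mif and Hmgb2 lost their calls with values of 0.24, 0.23 and 0.18 (edgeR adjusted p = 0.153, 0.260 and 0.284). Without the first wild-type set, Mif and Hmgb2 did (0.0508 and 0.0585), and Mif was also lost without the first knockout-labelled set and with a total of 300 or more (0.108 and 0.0858).

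**Figure D4:**
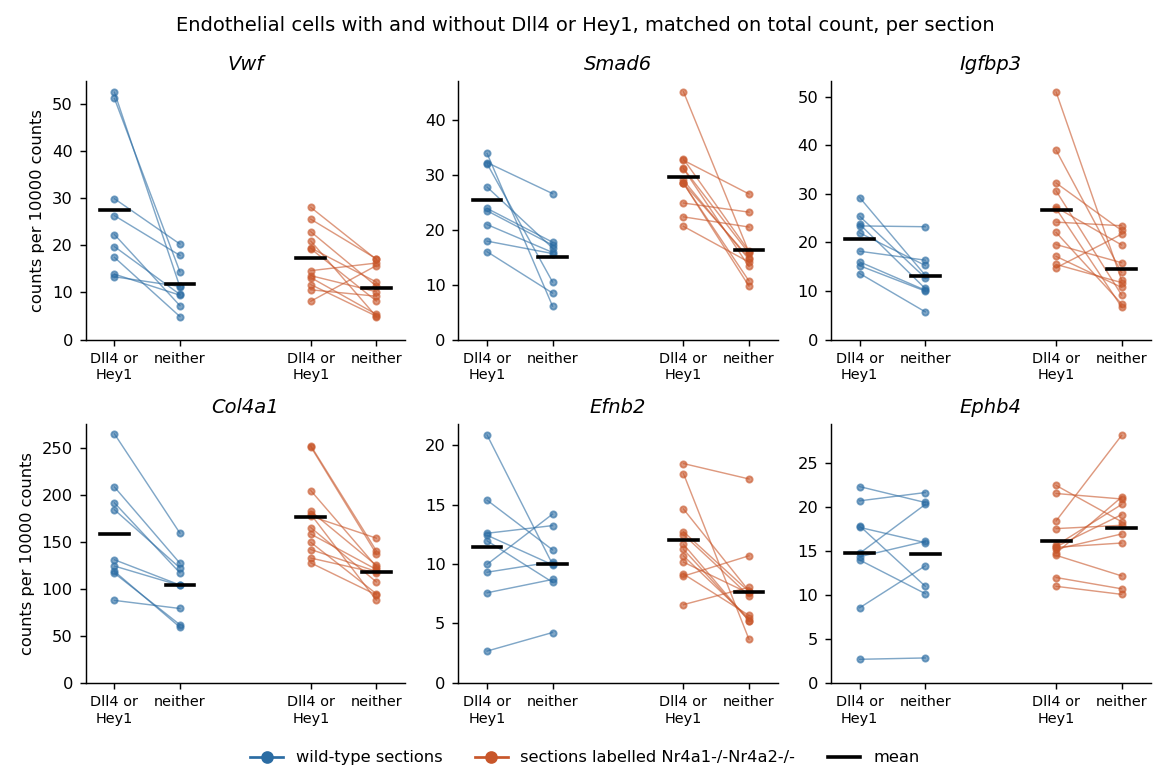
Counts per 10000 counts (vertical axes) of 6 genes in Dll4/Hey1+ ("Dll4 or Hey1") and Dll4-Hey1- ("neither") endothelial cells paired on total count, with 1 point per section, lines joining a section and black bars at the mean, for 9 wild-type sections (blue) and 12 knockout-labelled sections (orange). Smad6 and Col4a1 fall in 21 of 21 sections and Vwf in 19, while Ephb4 moves both ways.

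For the comparison of the embryos the targeted genes come first. In the Dll4-Hey1- cells Nr4a1 ran from 0 to 3.55 counts per 10000 (median 2.81) in the knockout-labelled sections and from 1.18 to 3.68 (median 2.85) in the wild type, and these counts were too low for the filter of the test. Without that filter its log2 fold change was 0.14 ± 0.32 (edgeR adjusted p = 0.909). Nr4a2 ran from 1.93 to 5.77 (median 2.92) against 2.93 to 9.98 (median 5.88), a log2 fold change of -0.66 ± 0.26 (edgeR adjusted p = 0.140) with overlapping ranges. Nr4a3, the family member that was not targeted, ran from 0.70 to 5.67 (median 2.71) against 2.85 to 10.1 (median 5.45), with a log2 fold change of -0.77 ± 0.28 without the filter (edgeR adjusted p = 0.117).

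Over all cells of the sections, Nr4a1 differed by -0.05 (edgeR adjusted p = 0.716) and Nr4a2 by 0.03 (adjusted p = 0.860) with TMM scaling, but by -0.31 (adjusted p = 0.00110) and -0.23 (adjusted p = 0.0325) when scaled by library size alone, so that the sign for Nr4a2 turned. Nr4a3, which was not targeted, differed by -0.21 (adjusted p = 0.125) and -0.49 (adjusted p = 0.000423) under the same scalings, in each case by more than either targeted gene. Which part of each transcript the probes cover is not given in the sources used here, and a probe outside a deleted part would not show the deletion. The counts thus do not mark the labelled knockout, and its sections are named by their label throughout.

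Between the embryos, 32 of 664 genes were higher (4.82%) and 5 lower (0.753%) in the Dll4-Hey1- cells of the knockout-labelled sections. Among the higher genes the largest differences were those of Eno1/b (1.14 ± 0.16, edgeR adjusted p = 2.72e-07), Hsp90ab1 (1.00 ± 0.13, adjusted p = 8.33e-08), the ribosomal fusion gene Fau (0.96 ± 0.17), Vim (0.96 ± 0.16), Btf3, a subunit of the nascent polypeptide-associated complex (0.95 ± 0.17), the translation factor Eif5a (0.83 ± 0.17), the chaperone Hsp90aa1 (0.77 ± 0.14) and the tubulin Tubb5 (0.76 ± 0.15). All 32 higher genes and 3 of the 5 lower genes kept their direction in each of the 4 pairs of numbered sets. Of 12 abundant housekeeping genes 10 were higher (median 0.63), and 7 when scaled by library size alone. Scaled by library size alone, which moved the median of all genes from -0.06 to -0.18, 18 genes were higher and 13 lower.

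Hsp90ab1 ran from 166 to 291 counts per 10000 (median 245) in the knockout-labelled sections and from 98.4 to 160 (median 139) in the wild type, without overlap. In the matched Cdh5- cells of the same sections it ran from 200 to 324 (median 232) against 72.7 to 170 (median 114), again without overlap. The same fit on the matched cells called 68 of 985 genes higher (6.9%) and 8 lower (0.812%), with a log2 fold change of 1.24 for Hsp90ab1 and 1.33 for Eno1/b, and all 12 housekeeping genes were higher (median 0.89). The difference in these genes was therefore measured in Cdh5- cells as well, and its cause was not tested.

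Cd34 and Kdr were the 2 identity genes of 22 tested that were higher in the knockout-labelled sections, beside 4.82% of all 664 genes. Scaled by library size alone, 1 of the 22 was higher. Neither gene was called between the sets numbered 1 alone. Cd34 ran from 18.1 to 28.6 counts per 10000 (median 24.4) against 9.30 to 26.4 (median 14.8) in the wild type, a log2 fold change of 0.74 ± 0.16 (edgeR adjusted p = 8.05e-04). The ranges overlapped through 1 wild-type section at 26.4, and 58.1% against 41.7% of cells carried a count. In the matched cells Cd34 had a log2 fold change of 0.43 ± 0.18 (edgeR adjusted p = 0.151), and its difference between embryos relative to matched cells was 0.36 ± 0.23 (adjusted p = 0.978). Kdr ran from 19.3 to 38.2 (median 26.8) against 9.98 to 29.3 (median 20.1), a log2 fold change of 0.53 ± 0.16 (edgeR adjusted p = 0.0333) with overlap. Scaled by library size alone it was not called (0.40, edgeR adjusted p = 0.112), and in the matched cells its log2 fold change was 0.05 ± 0.14 (adjusted p = 0.900).

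**Figure D5:**
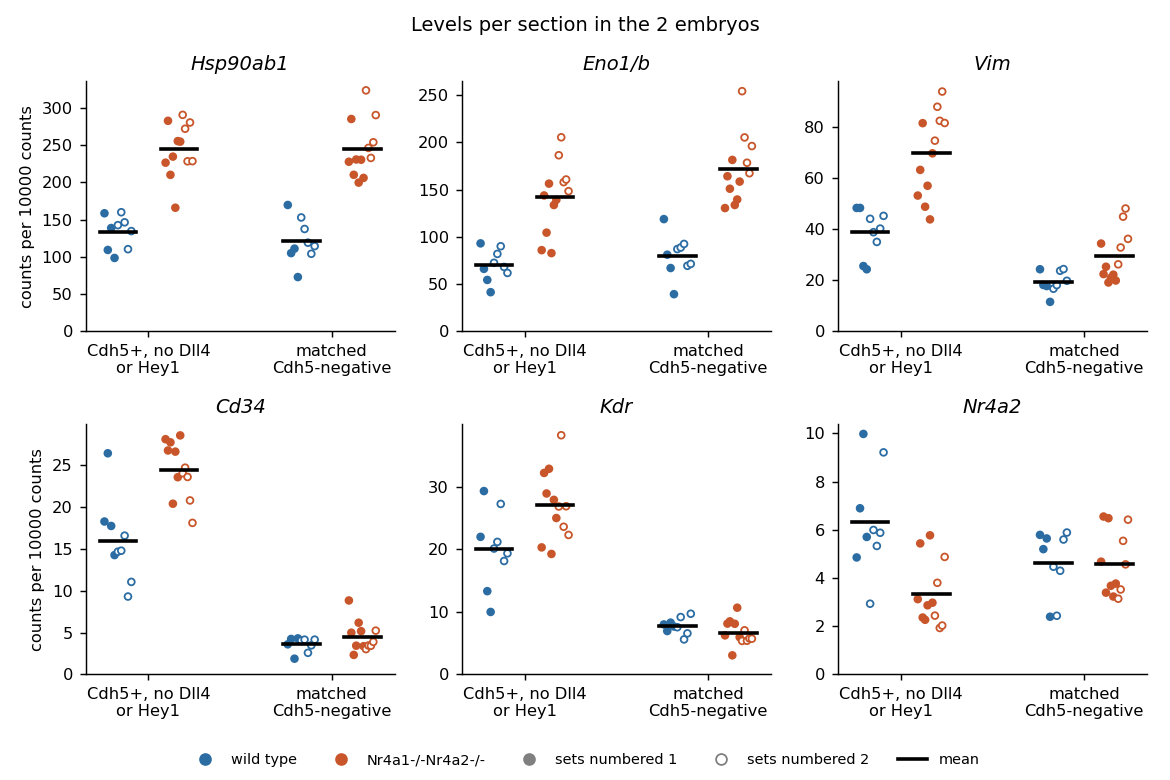
Counts per 10000 counts (vertical axes) of 6 genes in Dll4-Hey1- endothelial cells (left) and matched Cdh5- cells (right) of each embryo, 1 point per section (filled for the sets numbered 1, open for those numbered 2) and bars at the mean. Hsp90ab1 does not overlap between the embryos in either kind of cell, Cd34 and Kdr differ more in the endothelial cells, with no gene passing the test of that difference, and Nr4a2 overlaps between the embryos.

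The remaining list genes called between the embryos were the integrin Itgb1 (0.59) among basement membrane genes and Birc5 (0.52) and Hmgb2 (0.54) among 14 proliferation genes. Itgb1 and Birc5 were not called when scaled by library size alone (edgeR adjusted p = 0.118 and 0.127). No gene of the arterial (3 tested), vein (3), Notch (8), BMP and TGF-beta (9), leukocyte adhesion (6), mural (5), mesenchyme (10), macrophage (7), epithelial (4), neural tube (1) or heart (1) lists passed, and the erythroid list had none left to test. The 5 lower genes were Smad3 (-0.93), the neutrophil protease Prtn3 (-0.77), Timp1, an inhibitor of matrix proteases (-0.78), Nfatc3, a calcium-regulated transcription factor (-0.65), and the chemokine Ccl19 (-0.54), of which Smad3 and Prtn3 were named after their values were seen and did not keep their direction in all 4 pairs of numbered sets. Timp1 ran from 2.44 to 10.1 counts per 10000 (median 4.77) against 6.86 to 12.8 (median 9.19) and Nfatc3 from 4.68 to 11.1 (median 8.15) against 7.47 to 19.1 (median 13.8), with overlap in both. In the matched cells their log2 fold changes were -0.21 (Timp1, edgeR adjusted p = 0.435) and 0.15 (Nfatc3, adjusted p = 0.578). The calls of Timp1, Nfatc3 and Ccl19 were lost in many alternatives, for Ccl19 also without 1 wild-type section that stood far above the rest (-0.39, edgeR adjusted p = 0.176).

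The number of calls between the embryos rested on which sections entered. It was 37 in all, 54 without the first and 9 without the second set of knockout-labelled sections, 22 and 12 without the first and the second wild-type set, 2 between the sets numbered 1 alone and 50 between those numbered 2. With counts summed per numbered set, so that 2 sums stood against 2, 7 genes were called. Eif5a, Hsp90aa1 and Tubb5 were not among them (edgeR adjusted p = 0.100, 0.0987 and 0.135), although their log2 fold changes of 0.81, 0.81 and 0.77 were close to those over sections. Fau and Eif5a also missed the threshold without the second set of knockout-labelled sections (0.61 and 0.62, adjusted p = 0.0603 and 0.0647). Between the sets numbered 1 alone, of the 8 named higher genes only Eno1/b and Hsp90ab1 were called, and the others had log2 fold changes from 0.65 (Eif5a) to 1.00 (Btf3).

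The share of cells with a Runx1 count was 17.3% ± 6.29 (SD, 12 sections, range 6.67 to 28.6%) in the knockout-labelled sections and 24% ± 11 (9 sections, range 7.69 to 42.9%) in the wild type. The difference of -6.77 percentage points did not pass a two-sided exact permutation test over sections (p = 0.0893, 0.179 adjusted over Runx1 and Kit), and the ranges overlapped widely. For Kit the shares were 19.8% ± 6.56 and 15.8% ± 7.20, a difference of 3.97 points (exact permutation p = 0.205). Gfi1 was counted in 19.3% and 22.7% of cells. In the matched cells the Runx1 shares were 17% and 18.9%, the Kit shares 14.7% and 19.3% and the Gfi1 shares 16.5% and 18.1%, so the knockout-labelled Runx1 share lay near that of cells without Cdh5 and the wild-type Kit share lay below it.

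The cells were somewhat deeper in the knockout-labelled sections (median total 469 against 437 counts). With each cell thinned to 200 counts, an alternative chosen after seeing the data, the expected Runx1 shares were 7.74% and 12.2%, a difference of -4.50 points (exact permutation p = 0.0249, 0.0498 adjusted), and those of Kit 8.82% and 7.12% (exact permutation p = 0.230). The level of Runx1 differed by -0.46 ± 0.26 in the fit on summed counts (edgeR adjusted p = 0.335). Between the sets numbered 2 the Runx1 difference was -13.5 points (exact permutation p = 0.00794, the smallest that 252 splits can give), whereas between the sets numbered 1 it was 0.49 points (exact permutation p = 0.945). It was -5.76 points with a Cdh5 limit of 2 (exact permutation p = 0.00477) and 1.03 points with a limit of 4 (exact permutation p = 0.821), so neither its sign nor its call held across these settings.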

How the data were processed

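The authors imaged the sections on the CosMx SMI platform, segmented cells with the AtoMx software and deposited, per section, a table of raw counts (whole numbers of decoded transcripts per gene and cell). Seurat is named in the submitters' notes. The labels also mention paraffin and a human panel, whereas the study's methods state fresh frozen tissue and a mouse panel, and a figure legend of the study has more wild-type than knockout sections where the labels have more knockout sections. The labels were followed, and every direction between the embryos rests on them. Cell area and the place of a cell in the aorta, which the study used to choose cells, did not enter, and neither did negative probes. Cell names shared between sections of different numbered sets numbered 3410, and none of them had the same counts. No table was identical to another.

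The cells, gene lists and tests were chosen with earlier results of these data known. Genes read by the rule (Cdh5, Dll4, Hey1, Hbb, Hba-a1/2) were given no test, and other genes of the same cells were tested. Counts were summed per section and kind of cell (10 cells or more) and tested with edgeR 4.0.16 (robust quasi-likelihood, TMM, filterByExpr, Benjamini-Hochberg 0.05, section as a block within embryos) in R 4.3.3, after a test on simulated data. DESeq2 1.42.0 and limma 3.58.1 gave alternatives. The fit between embryos on matched cells was added after seeing the data. Levels are counts per 10000 counts. Genes were named where they passed in both embryos in one direction (the 15 highest and the 6 that fell), in one direction in the 4 pairs of numbered sets (8 highest and 3 lowest), or by size (8 lowest and 4 highest) against Dll4/Hey1+ cells, with genes of the lists. The sections come from 1 embryo per genotype, so p-values measure the spread between sections of that embryo. The sources do not state doublet removal, and a segmented outline can hold RNA of neighbouring cells.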

Additional observations from a re-analysis of the deposited data

Results flagged for a closer look

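In groups of 4 to 10 sections, a section was picked out when its gap to the nearest other section, as a share of the group's range, passed Dixon's 95% critical value (0.493 for the 9 wild-type sections). The 12 knockout-labelled sections exceeded this group size and were not examined. Chance passes about 1 group in 20, and 3 of 58 genes did so, in wild-type sections with few Dll4-Hey1- cells. Ccl19 stood at 67 counts per 10000 in the wild-type section numbered 4 (47 counts in 15 cells), with the next at 34.4 and a gap of 0.803 of the range. Runx1 stood at 17.7 in the wild-type section numbered 3 (16 counts in 17 cells), with the next at 9.21 (gap 0.532). Vcan stood at 22.2 in the same section (20 counts), with the next at 12.8 (gap 0.521).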

How the results depend on the processing

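Among 1225 values of single named genes under the alternatives, 1132 kept their direction and side of the threshold, 93 kept the direction but missed it, and none reversed. The genes named between the embryos had been picked for 1 direction in the 4 pairs of numbered sets. A reversal between the sets numbered 1 or those numbered 2 alone was therefore not possible for them. Smad3 and Prtn3, which did not keep their direction, were not among these values. Of the counts of calls, that against matched cells was 52 in the wild type and 32 with 1 matched cell per endothelial cell, 26 without the first and 30 without the second wild-type set. In the other embryo it was 103, and 65 and 57 without its first and second sets. The interaction count was 0, and 2 with a Cdh5 limit of 2. The count between the embryos was 37, and 77 with a Cdh5 limit of 2, 13 with a limit of 4, 54 without the first and 9 without the second knockout-labelled set, 22 and 12 without the first and second wild-type sets, 2 between the sets numbered 1 and 50 between those numbered 2, 7 summed per set and 66 in all endothelial cells. It ran from 23 (without the wild-type section numbered 4) to 42 when each section was left out in turn, and was 31 with the set as a random block. Against Dll4/Hey1+ cells it was 19, and 39 with a Cdh5 limit of 2 and 10 without the second knockout-labelled set. DESeq2 gave 56, 100, 0, 49 and 27. The Runx1 share difference was -4.50, -5.76 and -13.5 points with thinning, a Cdh5 limit of 2 and the sets numbered 2 alone, -6.17 with a total of 300 or more, and 0.49 and 1.03, with the sign turned, in the sets numbered 1 alone and with a Cdh5 limit of 4. Fewer sections or cells entered the fits that left some out. Why the counts moved was not tested for any setting. For the comparison of the embryos, no paired analysis was possible because the replicate numbers of the sections are in accession order and pair no sections across genotypes. The comparisons within a section had the section as a block.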
